A study of Mus musculus with 6 samples.

Results

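The 9 genes described here encode cell surface molecules with which CD8+ T cells roll on, adhere to and leave blood vessels, and lodge in tissue. They were chosen by name: Selplg and Cd44, the integrin alpha chains Itgal, Itga4, Itgae and Itga7, and the integrin beta chains Itgb1, Itgb2 and Itgb7. All 9 of 9 were found among the 34745 genes measured in each library. RNA-seq was run on CD8+ effector T (Teff) cells of WT mice (3 libraries) and Scd-1-/- mice (3 libraries), to ask how loss of stearoyl-CoA desaturase 1, the enzyme that makes oleic acid, affects Teff differentiation. WT mice were C57BL/6J, and Scd-1-/- mice were B6.129-Scd1tm1Ntam/J, in which the gene is disrupted in every cell and not in T cells alone. The mice were male, at 6 to 8 weeks of age. CD8+ T cells were isolated from spleens with a MojoSort mouse CD8 T cell kit and cultured alike for both genotypes, with anti-CD3 (5 μg/mL), anti-CD28 (0.5 μg/mL) and IL-2 (100 U/mL) for 3 days and IL-2 for 3 more days, and were harvested on day 6. No vessel wall, epithelium or flow is part of such a culture, so the values are RNA levels in cultured cells and not homing. The labels do not say whether libraries of the same genotype came from separate mice, and p-values measure only the spread between these libraries.

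An integrin is a heterodimer of an alpha and a beta chain, and the alpha chain usually sets the ligand. In T cells the Itgal chain pairs with Itgb2 to form LFA-1, which binds ICAM-1. The Itga4 chain pairs with Itgb1 to form VLA-4, which binds VCAM-1, or with Itgb7 to form the gut homing receptor for MAdCAM-1. The Itgae chain (CD103) pairs with Itgb7 alone and binds E-cadherin on epithelial cells, and the Itga7 chain pairs with Itgb1 as a laminin receptor best known in muscle. Selplg encodes PSGL-1, the ligand on leukocytes through which selectins make them roll, and Cd44 encodes the hyaluronan receptor that marks antigen-experienced T cells.

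Itgb1 and Itgb7 encode alternative partners of the Itga4 chain, and their signs of genotype difference were opposite, as given further down. Their promoters are therefore shown, from 250 bases before to 50 bases after the start, as RefSeq gives them on GRCm38.p6. Capitals mark matches to 5 short motifs searched on both strands: RUNX (TGTGGT), ETS (CCGGAA), TCF/LEF (CTTTGA), T-box (TCACAC) and the GC box (GGGCGG).
Itgb7 promoter, chr15:102231886-102232185, minus strand: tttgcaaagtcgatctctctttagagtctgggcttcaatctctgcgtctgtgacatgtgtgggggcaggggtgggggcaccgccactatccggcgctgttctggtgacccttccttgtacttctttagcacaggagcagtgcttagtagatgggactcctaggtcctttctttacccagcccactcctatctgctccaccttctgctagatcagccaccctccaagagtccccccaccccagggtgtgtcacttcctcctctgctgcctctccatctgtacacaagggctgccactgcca
Itgb1 promoter, chr8:128685404-128685703, plus strand: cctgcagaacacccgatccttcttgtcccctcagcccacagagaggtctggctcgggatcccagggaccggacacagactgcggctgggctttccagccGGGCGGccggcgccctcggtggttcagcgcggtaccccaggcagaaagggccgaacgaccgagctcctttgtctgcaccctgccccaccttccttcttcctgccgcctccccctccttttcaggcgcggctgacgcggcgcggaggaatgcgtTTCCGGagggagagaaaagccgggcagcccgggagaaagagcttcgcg
The Itgb7 window held none of the 5 motifs, and the Itgb1 window held 1 ETS motif and 1 GC box. Over 32851 promoters of this length, 16.8% held RUNX, 14.9% ETS, 16% TCF/LEF, 14.5% T-box and 35.7% the GC box, and no match says only that these letters are not in the window. Promoter entries were found for 4 of the 9 genes. The window of Itga4 (chr2:79255176-79255475, plus strand) held 1 RUNX motif, 2 T-box motifs and 1 GC box, and that of Cd44 (chr2:102901616-102901915, minus strand) held 1 GC box.

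The libraries held 14034479 to 15866216 counts each. A count of 0 at this depth allows up to 3 counts, or 0.189 to 0.214 CPM, which covers counting error only. Scd1, the targeted gene, had 3074 to 4272 counts in the WT libraries and 20 to 36 in the Scd-1-/- libraries (log2 fold change -7.04, SE 0.278, adjusted p = 1.1e-04). The summed FPKM of 8 CD8 T cell genes was 2852 to 3588 in WT and 2963 to 3407 in Scd-1-/- cells, although Cd8a itself was lower in every Scd-1-/- library (27.9 to 36.6 FPKM against 43.2 to 47.6). Cd8b1 was lower in each pair of the same number, with 202.1 to 299 FPKM in Scd-1-/- against 275 to 329.9 in WT. Replicate 1 of both genotypes stood apart from the other 4 libraries on the first principal component, which took 42.3% of the variance. Libraries with the same number deviated together, clearly for replicate 1 and less so for replicates 2 and 3. The labels do not pair the libraries. A fit with the replicate number as a block is therefore given beside the unblocked one where it changes a result.

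Compared by FPKM, which scales counts to gene length and library total, the 9 genes spanned a wide range of levels. The highest was Itgb7, with a mean of 305 FPKM over the 6 libraries, followed by Selplg (173), Itgb2 (149), Itgal (65.2) and Itgb1 (44.2). Cd44 (13.2), Itga7 (8.16), Itga4 (3.55) and Itgae (0.794) were lower. The ranges over the libraries did not overlap between Itgb2 and Itgal, Itgal and Itgb1, Itgb1 and Cd44, or Itga4 and Itgae. The other 4 neighbours in this order had overlapping ranges: Itgb7 with Selplg, Selplg with Itgb2, Cd44 with Itga7, and Itga7 with Itga4. Each beta chain thus stood above the alpha chains it pairs with, in RNA per length and in every library. When the counts were scaled instead to each gene's longest coding transcript, Selplg came first (535 on this scale) and Itgb7 came next (317), with the other 7 in the same order.

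**Figure D1:**
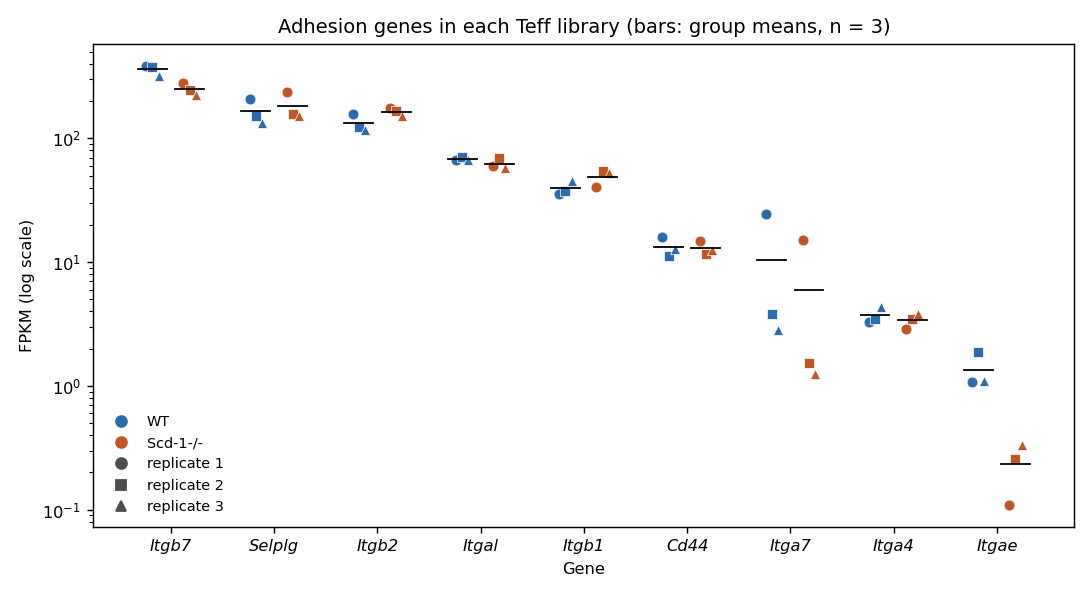
FPKM of the 9 adhesion genes in each library (log axis), ordered by mean level, with WT in blue, Scd-1-/- in orange, a marker shape for each replicate number and bars at the mean of the 3 libraries of a genotype. Points of the 2 genotypes are apart for Itgb7 and Itgae, both lower in Scd-1-/-, and replicate 1 lies far above replicates 2 and 3 for Itga7 in both genotypes.

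Counts of the 2 genotypes were compared by the edgeR quasi-likelihood test over the 9627 genes whose mean FPKM reached 1. The study's thresholds require a log2 fold change of 1 or more in either direction and an unadjusted p below 0.001, and Benjamini-Hochberg adjusted p-values are given beside them. Of the 9 adhesion genes, 8 reached that level, and 0 of these 8 passed the thresholds (0.738% of tested genes did) or had an adjusted p under 0.05 (0.114%). DESeq2 gave no p for Itga7 and had 0 of the other 7 for both, against 1.67% and 2.77% of the genes it gave an adjusted p. An unadjusted edgeR p under 0.05 was found for 1 of the 8, Itgb7, and for 10.1% of tested genes. The remaining gene, Itgae, lay under this level and was taken from an edgeR fit of the 17192 genes that had any count. It passed the thresholds there, as did 0.861% of these genes (0.32% in the lower direction), and had an adjusted p under 0.05, as did 0.489%. With the replicate block, 2 of the 9 passed the thresholds (1.91% of the 9627 genes and 1.81% of the 17192), and 3 had an adjusted p under 0.05 (4.7% and 4.36%). These were Itgae, Itga7 and Itgb7, all lower in Scd-1-/- cells, with Itgb7 short of the thresholds. FPKM did not overlap between the genotypes for 2 of the 9, Itgae and Itgb7, against 16% of the 9627 genes and 13.6% of the 17192. Both were lower in Scd-1-/-, a direction without overlap seen in 8.32% of the 9627 genes and 7.33% of the 17192. The median log2 fold change of the 9 genes was -0.11, with 5 below 0, and that of all tested genes was -0.0005.

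Itgae, the alpha chain of the E-cadherin receptor CD103, fell in Scd-1-/- Teff cells and was the only 1 of the 9 to pass the thresholds in the fit without the block. WT libraries 1, 2 and 3 had 1.08, 1.88 and 1.09 FPKM, and the Scd-1-/- libraries had 0.110, 0.257 and 0.336 FPKM. Every Scd-1-/- library was below every WT library, and the counts behind these values were 77, 124 and 73 in WT against 8, 17 and 25 in Scd-1-/-. The mean was 1.35 ± 0.459 in WT and 0.234 ± 0.115 FPKM in Scd-1-/- (SD, n = 3). The log2 fold change was -2.51 (SE 0.462, edgeR adjusted p = 0.0485), that is 5.69-fold higher in WT. With the replicate block it was -2.53 (SE 0.356, adjusted p = 0.00280), and replicates 1, 2 and 3 taken pair by pair differed by -3.30, -2.87 and -1.70 on the log2 scale. Leaving out 1 library at a time gave -2.87 to -2.14. The thresholds were missed without WT replicate 2 (-2.17) and without Scd-1-/- replicate 2 (-2.57), and without replicate 3 of either genotype the adjusted p was above 0.05. The call also ended with limma on log2(FPKM + 1), a scale that shrinks changes of low genes (-0.92, adjusted p = 0.170). It ended as well with limma on log2(FPKM + 0.1), where the change was -2.14 (adjusted p = 0.163). With RLE size factors the adjusted p was 0.0507. Itgae is on chromosome 11 (73090583 to 73147446, plus strand, GRCm38). Haspin lies inside it on the opposite strand, shares none of its exon bases and had 493 to 573 counts in the 6 libraries.

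CD103 is also carried by other spleen cells, which the CD8 T cell isolation before culture was meant to remove, and bulk RNA cannot tell fewer cells with a transcript from less transcript per cell. The summed FPKM of 6 dendritic cell genes was 0.544 to 2.75 in WT and 1.96 to 8.30 in Scd-1-/- libraries. Nearly all of that sum was Itgax, and the defining genes Xcr1, Clec9a and Siglech were at 0 in all 6 libraries. The sum of 5 natural killer cell genes was 1.69 to 2.56 in WT and 6.29 to 14.3 FPKM in Scd-1-/-, mostly Klrb1c and Klre1, with Ncr1 at no more than 0.221 FPKM. The sum of 7 B cell genes was 9.42 to 10.7 in WT and 3.13 to 8.0 in Scd-1-/-, nearly all Cd79b, with Ms4a1, Pax5 and Blnk at 0. Among 9 measured myeloid genes the sum was 8.48 to 17.3 against 10.4 to 28.3, mostly Cd68, with Adgre1, Mpo and Fcgr1 at 0. Cd14 was 0.179 to 0.461 in WT and 1.14 to 1.89 FPKM in Scd-1-/- (4 to 11 against 28 to 42 counts), and Lyz2, Csf1r and S100a8 had no more than 4 counts in any library. The CD4 T cell sum was 6.15 to 12.2 against 8.01 to 11.2, nearly all Zbtb7b. Of its other genes, Cd4 itself had 8, 24 and 12 counts in WT libraries and 5, 2 and 1 in Scd-1-/- libraries. Cd40lg had 0, 5 and 2 counts against 0 in each, and Foxp3 had 5, 4 and 0 against 4, 3 and 3. Erythroid, platelet and stromal sums were under 1 in every library. The part of these cells in the Itgae difference was not tested.

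Itgb7, the beta chain that CD103 and the MAdCAM-1 receptor share, was the most abundant of the 9 by FPKM, above 98.3% of all tested genes. WT libraries 1, 2 and 3 had 385, 379 and 317 FPKM, and Scd-1-/- libraries had 281, 245 and 222 FPKM. The 2 genotypes did not overlap, with means of 360.1 ± 37.7 in WT and 249.5 ± 29.8 in Scd-1-/- (SD, n = 3). The log2 fold change was -0.51 (SE 0.145), with an adjusted p of 0.277 in the unblocked edgeR fit and 0.0293 with the replicate block (SE 0.0944). The size stayed under the study's threshold in both fits. Leaving out 1 library at a time gave -0.61 to -0.43. The gene is on chromosome 15 (102215995 to 102231944, minus strand).

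Itgb1, the other partner of the Itga4 chain, had 35.7, 37.6 and 45.2 in WT and 40.4, 54.2 and 52.2 FPKM in Scd-1-/- libraries. The groups overlapped through Scd-1-/- replicate 1, although each Scd-1-/- library was above the WT library of the same number. The log2 fold change was 0.33 (SE 0.154, adjusted p = 0.529 with edgeR, 0.117 with the block). Itgb2, the common chain of the leukocyte integrins, had 158, 123 and 118 in WT and 175, 165 and 153 FPKM in Scd-1-/-. Its log2 fold change was also 0.33 (SE 0.154, adjusted p = 0.534 with edgeR, 0.104 with the block). Neither beta chain passed a threshold. The 3 beta chains therefore differed in sign, with Itgb1 and Itgb2 above 0 and Itgb7 below 0 in all 3 pairs of libraries. In the 4 libraries of replicates 2 and 3 alone, Itgb2 had a log2 fold change of 0.44 (adjusted p = 0.0269) and Itgb1 one of 0.40 (adjusted p = 0.0502). In that fit 1213 of all tested genes had an adjusted p under 0.05, against 11 in the fit to 6 libraries.

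**Figure D2:**
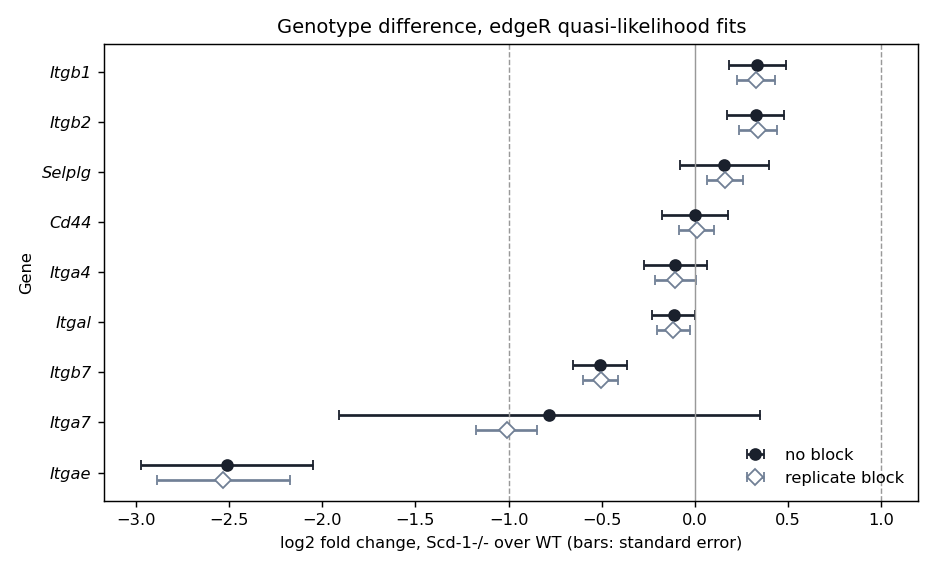
Log2 fold change of each adhesion gene, Scd-1-/- over WT, with its standard error, from the edgeR fits without (filled) and with (open) the replicate block over 3 libraries a genotype. Dashed lines mark a log2 fold change of 1 in either direction, which Itgae passes in both fits and Itga7 only with the block, where its standard error drops from 1.13 to 0.163.

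Itga7 set the 2 fits furthest apart. WT libraries 1, 2 and 3 had 24.3, 3.80 and 2.86 FPKM, and Scd-1-/- libraries had 15.2, 1.52 and 1.24 FPKM. Replicate 1 was the highest library of both genotypes, 7.32 times the mean of replicates 2 and 3 in WT and 11 times in Scd-1-/-, so the genotypes overlapped. Within each pair of the same number, Scd-1-/- was lower, by -0.68, -1.32 and -1.20 on the log2 scale. The unblocked edgeR fit gave -0.78 (SE 1.13, adjusted p = 0.889). With the replicate block it gave -1.01 (SE 0.163, adjusted p = 0.0192). Replicates 2 and 3 alone, where 1213 genes had an adjusted p under 0.05, gave -1.24 (adjusted p = 0.0128). The sign turned without WT replicate 1 (0.89), and over the 6 fits that left out 1 library the unblocked value ran from -2.91 to 0.89. Itga7 is on chromosome 10 (128933818 to 128958282, plus strand). It shares 9 exon bases with Mettl7b on the opposite strand, which had no more than 2 counts in any library.

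Itga7 was also the adhesion gene with the largest difference between replicate 1 and the other libraries. In an edgeR fit with genotype and replicate 1 as terms, 19.5% of 17192 genes differed between replicate 1 and the other 4 libraries at an adjusted p under 0.05, and 3 of the 9 adhesion genes did. Itga7 was higher by 3.14 (SE 0.171, adjusted p = 4.2e-12), which ranked it at 2 of the 17192 genes by adjusted p. By the signed log2 difference, counted from the gene most raised in replicate 1, it ranked at 303. Selplg was higher by 0.56 (SE 0.105, adjusted p = 3.5e-04) and Cd44 by 0.34 (SE 0.118, adjusted p = 0.0442). This grouping was chosen after replicate 1 was seen to stand apart, and the labels do not say what a replicate number stands for.

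**Figure D3:**
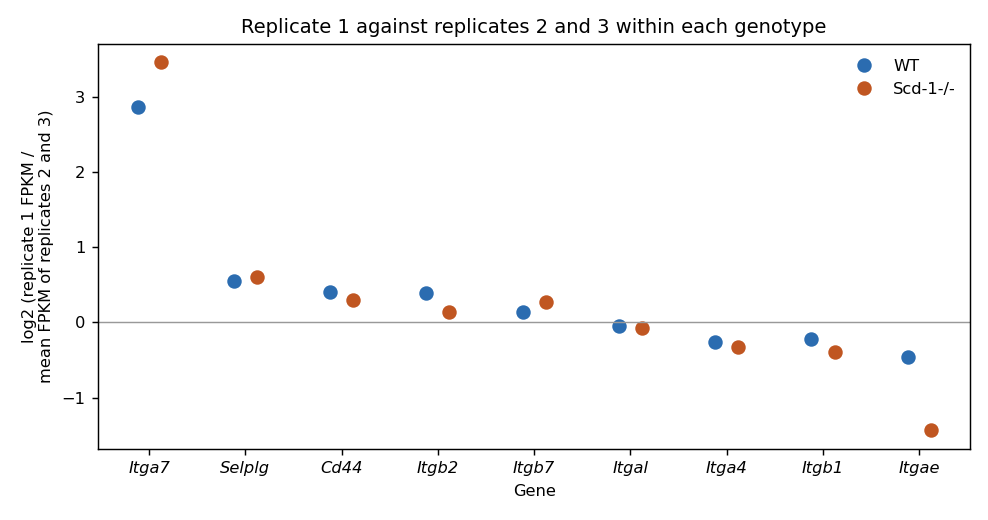
Log2 ratio of replicate 1 to the mean FPKM of replicates 2 and 3, computed within WT (blue) and within Scd-1-/- (orange), 1 point per gene and genotype. The 2 genotypes lie on the same side of 0 for all 9 genes, and Itga7 is far above the other genes in both.

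Selplg, the selectin ligand, had 209.6, 152 and 133 in WT and 235, 158 and 152 FPKM in Scd-1-/- libraries, with replicate 1 the highest of each genotype. Its log2 fold change was 0.16 (SE 0.238, adjusted p = 0.893 with edgeR, 0.360 with the block), and it was below 0 without Scd-1-/- replicate 1 (-0.07). Cd44 had 15.8, 11.2 and 12.7 in WT and 14.9, 11.7 and 12.6 FPKM in Scd-1-/-. The Cd44 means, 13.3 ± 2.37 and 13.1 ± 1.68 (SD, n = 3), were close (log2 fold change 0.00098, SE 0.177, adjusted p = 0.999), and its sign changed with the scaling. Both genes are on the minus strand, Selplg on chromosome 5 (113818536 to 113832644) and Cd44 on chromosome 2 (102811141 to 102901665).

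Itgal, the alpha chain of LFA-1, had 66.6, 71.0 and 67.3 in WT and 60.1, 68.8 and 57.6 FPKM in Scd-1-/-. The genotypes overlapped through Scd-1-/- replicate 2 (log2 fold change -0.11, SE 0.116, adjusted p = 0.827 with edgeR). Itga4 had 3.28, 3.47 and 4.38 in WT and 2.90, 3.47 and 3.80 FPKM in Scd-1-/-. Its log2 fold change was also -0.11 (SE 0.171, adjusted p = 0.900), and it was 0.01 without WT replicate 3. Itga4, on chromosome 2 (79255426 to 79333123, plus strand), shares 1124 exon bases with Cerkl on the opposite strand, which had 17 to 33 counts a library. Itgal is on chromosome 7 (127296260 to 127335138, plus strand), Itgb1 on chromosome 8 (128685654 to 128733200, plus strand) and Itgb2 on chromosome 10 (77530252 to 77565708, plus strand).

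Since integrin chains work in pairs, 6 ratios of FPKM between chains were computed within each library, and the genotypes were compared by two-sided exact permutation tests. With 3 libraries against 3 the smallest p possible is 0.1, which cannot pass 0.05. In 4 of the 6 ratios the genotypes did not overlap, each with an exact permutation p of 0.1 (0.15 after Benjamini-Hochberg adjustment over the 6 ratios). All 4 were lower in Scd-1-/- cells. The ratios share chains, and Itgae and Itgb7 alone already did not overlap, so the 4 are not separate results, and the share of other gene pairs without overlap was not computed. The ratio of Itgae to Itgb7, the CD103 pair, was 0.00375 ± 0.00111 in WT and 0.000983 ± 0.000564 in Scd-1-/- (SD, n = 3), a log2 difference of -2.10. The ratio of Itgb7 to Itgb1, the alternative partners of Itga4, was 10.8, 10.1 and 7.0 in WT libraries and 6.97, 4.52 and 4.26 in Scd-1-/- libraries, a log2 difference of -0.84. The groups were set apart by a narrow gap, between WT replicate 3 and Scd-1-/- replicate 1. The ratio of Itga4 to Itgb1, the VLA-4 pair, was 0.0920, 0.0923 and 0.0968 in WT and 0.0718, 0.0639 and 0.0727 in Scd-1-/- (log2 difference -0.43). Its spread among WT libraries on the log2 scale (SD 0.0414) was the smallest of the 6 ratios. The ratio of Itgal to Itgb2, the LFA-1 pair, was 0.523 ± 0.0878 in WT and 0.379 ± 0.0370 in Scd-1-/- (log2 difference -0.46). Here too the gap was narrow, from 0.422 in WT replicate 1 to 0.417 in Scd-1-/- replicate 2.

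The other ratios overlapped between the genotypes. Itga4 to Itgb7 was 0.0105 ± 0.0029 in WT and 0.0138 ± 0.0034 in Scd-1-/- (SD, n = 3), a log2 difference of 0.40 with an exact p of 0.2. Within the pairs of the same number it was higher in Scd-1-/- by 0.27, 0.63 and 0.30. Itga7 to Itgb1 was 0.683 in WT replicate 1 and 0.101 and 0.0631 in the other WT libraries, and 0.377, 0.0280 and 0.0237 in Scd-1-/- libraries (log2 difference -1.37, exact p = 0.5). Within the pairs its log2 differences were -0.86, -1.85 and -1.41, all lower in Scd-1-/-. All 6 ratios had 1 sign in the 3 pairs, and an exact test over 3 pairs cannot pass 0.05. The signs of all 6 log2 differences were the same under each alternative run, but the sizes were not. Leaving out 1 library gave -2.66 (Scd-1-/- replicate 1) to -0.34 (WT replicate 1) for Itga7/Itgb1, with -0.79 and -0.67 without Scd-1-/- replicates 2 and 3. It gave 0.24 (Scd-1-/- replicate 3) to 0.62 (WT replicate 3) for Itga4/Itgb7. With log2(FPKM + 1) the Itgae/Itgb7 difference was -0.39. RNA ratios do not give the amounts of the heterodimers, which were not measured here.

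**Figure D4:**
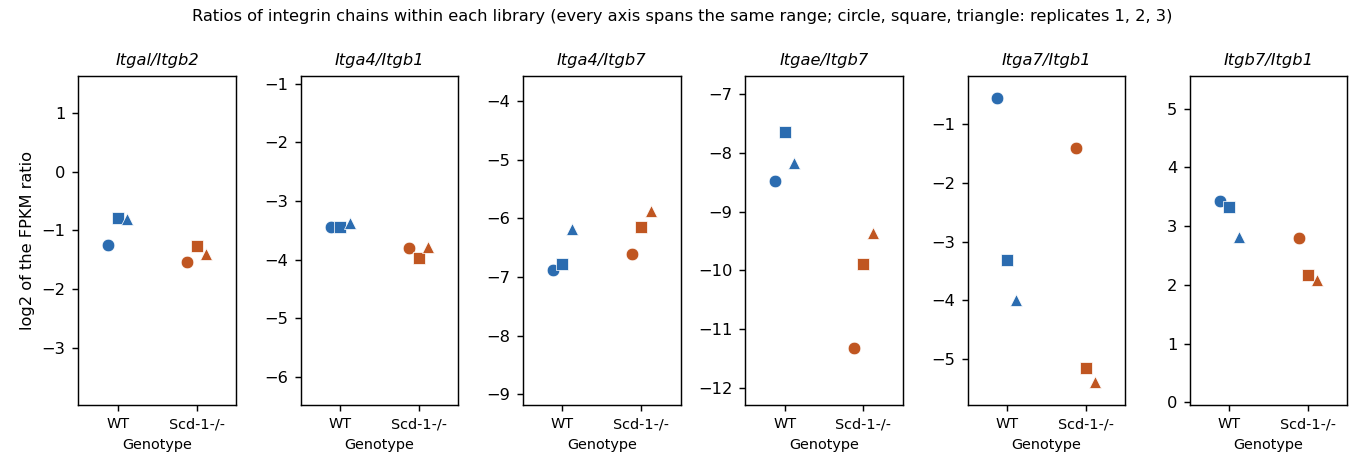
Log2 ratio of FPKM between 2 integrin chains in each library, 1 panel per ratio, with WT in blue, Scd-1-/- in orange, a marker shape per replicate number and axes of equal span. The genotypes are apart for Itgal/Itgb2, Itga4/Itgb1, Itgae/Itgb7 and Itgb7/Itgb1, and overlap for Itga4/Itgb7 and Itga7/Itgb1.

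The genes around these 9 were followed in 6 lists: other integrin subunits, integrin activation, the adhesome, glycosylation of selectin ligands, selectins with other adhesion molecules, and partners of Cd44. Of 133 listed genes, 130 were in the files, and in 84 the mean FPKM reached 1. Of these 84, 1 rose past the study's thresholds (0.499% of the 9627 genes) and 1 fell past them (0.239%), and 0 had an adjusted p under 0.05 with edgeR, against 6 with DESeq2 (2.77% of the genes with a DESeq2 adjusted p). An unadjusted edgeR p under 0.05 was found for 18 of the 84 (10.1% of the 9627 genes). With the replicate block, 3 of the 84 passed the thresholds (1.91% of the 9627 genes). An adjusted p under 0.05 was then found for 13 of the 84 (4.7% of the 9627 genes), 7 of them higher and 6 lower in Scd-1-/-. The median log2 fold change of the 84 was 0.07.

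St3gal6, a sialyltransferase that caps selectin ligands such as PSGL-1, was 2.19 ± 0.436 in WT and 4.95 ± 0.148 FPKM in Scd-1-/- (SD, n = 3; log2 fold change 1.20, adjusted p = 0.0837 with edgeR, 0.00912 with the block). Cd74, a partner of Cd44 in signalling and the chaperone of MHC class II, was 4.24 ± 1.51 in WT and 1.20 ± 0.177 FPKM in Scd-1-/- (log2 fold change -1.79, adjusted p = 0.0988 with edgeR, 0.0109 with the block). The study named Cd74 from these libraries, so its fall is no independent evidence. Without 1 library each, Cd74 stayed past the thresholds only without WT replicate 1 (-2.02 to -1.53 over the 6 fits), and St3gal6 without replicate 1 of either genotype (1.10 to 1.40).

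Among the other integrin subunits, 7 of 18 measured reached a mean FPKM of 1, led by Itgb3 (10.8 FPKM) and Itgax (2.74). Of these 7, 0 passed the thresholds without the block and 1, Itgax, passed them with it. Itga8 and Itga11 were at 0 in every library, as were Fermt1 and Fermt2 of the activation list, Chst4, Emcn, Esam, Has2 and Lyve1. The integrin activation genes, 20 tested and led by the kindlin Fermt3 (228 FPKM) and the GTPase Rap1b (182), had 0 past the thresholds, as had the 19 tested adhesome genes, led by Rac2 (438) and Coro1a (337). Of the glycosylation genes 15 were tested, led by B4galt1 (53.2) and St3gal4 (44.6), and of the selectins and other adhesion molecules 13, led by Cd2 (154) and Cd48 (107). Of the partners of Cd44 10 were tested, led by the membrane-actin linkers Ezr (180.3) and Msn (135). Sele and Madcam1, endothelial ligands of Selplg and of the Itga4/Itgb7 receptor, were at 0 in all 6 libraries. Itgam, Tgfb1i1 and Vsir were not analysed here.

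Some further genes were chosen after their values were seen. Itgax was 1.3 ± 1.23 in WT and 4.19 ± 3.50 FPKM in Scd-1-/- (SD, n = 3), with a log2 fold change of 1.69. Its edgeR adjusted p was 0.529 without the block and 0.00591 with it, and it passed the study's thresholds only with the block. Spp1, whose product osteopontin binds both integrins and Cd44, had 3.18, 3.26 and 4.88 FPKM in WT libraries and 5.18, 65.1 and 66.5 FPKM in Scd-1-/- libraries (adjusted p = 0.177 with edgeR, 0.0416 with the block). Gcnt1, which builds the glycans that selectins bind, was 0.356 ± 0.277 in WT and 1.01 ± 0.168 FPKM in Scd-1-/- (adjusted p = 0.278 without and 0.0120 with the block, over the 17192 genes). It too passed the thresholds only with the block. Among those lower with the block, B3gnt3, which extends the core glycans that carry selectin ligands, was 9.87 ± 1.91 in WT and 4.96 ± 0.508 FPKM in Scd-1-/- (log2 fold change -0.97, adjusted p = 0.158 without and 0.0390 with the block). The adhesion receptors Pecam1 (-0.70, 0.0220 with the block) and Cd226 (-0.89, 0.0301) and the adhesome genes Actn1 (-0.91, 0.0371) and Rhoh (-0.50, 0.0426) were lower as well, by log2 fold change and blocked adjusted p. Higher with the block were also Rasa3 (0.75, 0.0235), C1galt1 (0.64, 0.0477), Galnt3 (0.82, 0.0421) and Cd48 (0.70, 0.0444). For the genes from Pecam1 to Cd48 the log2 fold changes are those of the unblocked edgeR fit. Their adjusted p in that fit was 0.157 (Pecam1) to 0.523 (Actn1). Cdh1, the E-cadherin ligand of CD103, was 0.920 ± 1.09 in WT and 1.75 ± 0.567 FPKM in Scd-1-/- and passed no threshold in either fit.

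**Figure D5:**
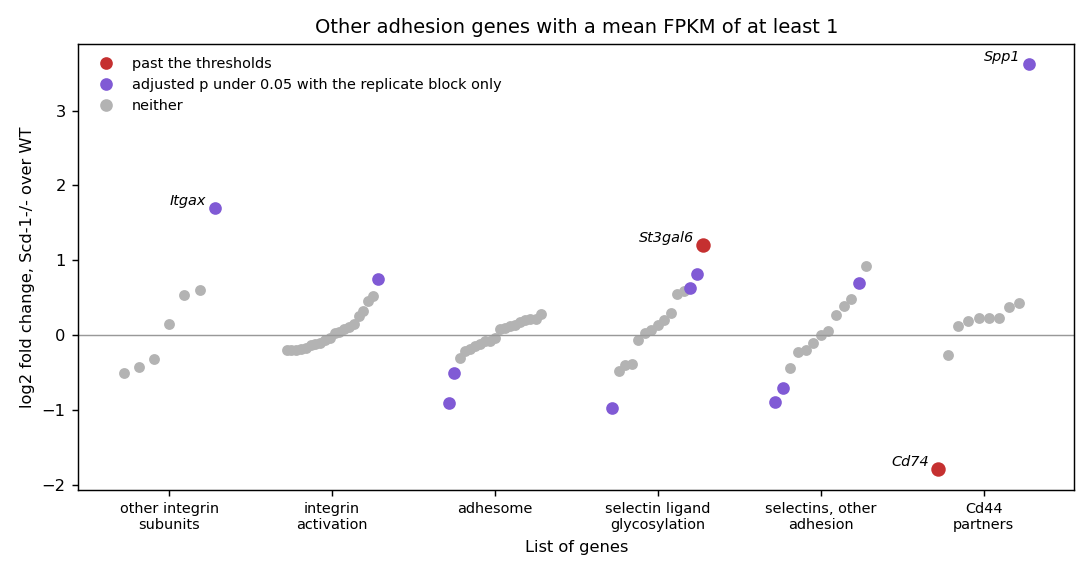
Log2 fold change, Scd-1-/- over WT, of the 84 other adhesion genes whose mean FPKM reached 1, in 6 lists and ordered by value within each. Red points (St3gal6, Cd74) passed the study's thresholds in the fit without the replicate block, and purple points had an adjusted p under 0.05 only with the block.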

How the data were processed

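RNA-seq libraries of cultured Teff cells, 3 WT and 3 Scd-1-/-, were grouped and numbered by the sample labels. The authors deposited raw counts and FPKM per gene for each library. Per the labels the reads were aligned to GRCm38 with HISAT2 and counted with StringTie (1.3.0). The strand setting and the handling of reads that match several genes are not given in the sources used here, so reads of overlapping genes on opposite strands may not be told apart. The methods name a stranded total RNA kit and the labels poly(A) RNA and another kit. The deposited FPKM hold no TMM factor: the gene lengths they imply were equal in all libraries (largest ratio 1.00002 over 9315 genes).

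The 9 genes and all lists were chosen with earlier results of these data known. Genes whose mean FPKM reached 1 were tested on their counts with edgeR (4.0.16, R 4.3.3), quasi-likelihood test, TMM (factors 0.986 to 1.03) and no block. Below it, values came from the same fit over the 17192 genes with any count. SE is the log2 fold change divided by the square root of F. Genes named are the 9, Scd1, listed genes past a threshold, and the 2 most abundant and those at 0 or not analysed in each list. Marker genes are those at 0 and, chosen after their values were seen, those that make up or differ in a sum. The text says where another gene was chosen otherwise. Ratios were tested with scipy (1.17.1). Positions are those of GENCODE M21, which held 98.62% of the genes. Some genes of the lists are not reported here and do not enter the counts of listed genes. The tests were tried on simulated counts that held no replicate effect, so the trial cannot judge them for data with one.

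Same-numbered libraries correlated in their deviations from the group means (r of 0.583, 0.297 and 0.459 for replicates 1, 2 and 3 across genes, which are not independent). Crossed pairs had r of -0.544 to 0.357. Scd-1-/- replicate 2 had a higher r with WT replicate 3 (0.357) than with WT replicate 2 (0.297). For the block the numbers were taken to pair the libraries, which the labels do not state and which is unsure for replicates 2 and 3. Alternatives were RLE or library totals in place of TMM, no FPKM minimum or one of 5, DESeq2 (1.42.0), limma (3.58.1) on log2(FPKM + 1) or log2(FPKM + 0.1), the replicate block, replicates 2 and 3 alone, and leaving out each library. Levels per longest coding transcript and the replicate 1 term were added after the data were seen. The authors' own comparisons were not used.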

Additional observations from a re-analysis of the deposited data

How the results depend on the processing

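With 3 libraries a genotype, and 8 to 124 counts for Itgae, precision was limited: without the block, Itgb7 at -0.51 (SE 0.145) still had an adjusted p of 0.277. The p-values from leaving out a library compare 2 with 3. The signs of Itgae, Itgal, Itgb1, Itgb2 and Itgb7 held in every alternative. Cd44 turned to between -0.0208 and -0.0023 on the log2 scale with other scaling, minimum or test: -0.0023 with RLE, -0.0208 with library totals, -0.0045 with no FPKM minimum, -0.0026 with a minimum of 5, -0.0023 with DESeq2, and -0.0125 and -0.0129 with limma at pseudocounts of 1 and 0.1. Itgae missed the study's thresholds with limma, at -0.92 (pseudocount 1, a scale that understates low genes) and -2.14 (0.1). Its adjusted p was 0.0507 with RLE, which left 0 of the 9 genes under 0.05, and its adjusted p ran from 2.4e-09 to 0.333 over the alternatives.

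The counts of the 9 genes past the thresholds were 0 with a minimum of 5 (Itgae is then not tested) and with both limma fits, 2 with the replicate block and 2 in replicates 2 and 3 alone. Those with an adjusted p under 0.05 were 0, 0, 3 and 4 in the same order. The paired fit, with the replicate block, moved Itga7 past the thresholds (-1.01), as did replicates 2 and 3 alone (-1.24), and the block brought Itgb7 under an adjusted p of 0.05. It changed no other call among the 9. Of all tested genes, those past the thresholds numbered 71, and 148 with no minimum, 43 with a minimum of 5, 161 with DESeq2, 184 with the block and 369 in replicates 2 and 3. Those with an adjusted p under 0.05 numbered 11, and 84, 18, 266, 452 and 1213 in these settings and 17 with limma at a pseudocount of 1. The listed genes past the thresholds numbered 2, and 0 with a minimum of 5, 1 with limma at a pseudocount of 1 and 8 in replicates 2 and 3. Those with an adjusted p under 0.05 numbered 0, and 1 with no minimum, 6 with DESeq2, 13 with the block and 25 in replicates 2 and 3.

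Leaving out 1 library at a time gave 0 to 1 of the 9 genes past each threshold, 25 to 163 tested genes past the study's thresholds, 2 to 182 with an adjusted p under 0.05, 0 to 4 listed genes past the thresholds and 0 to 6 with an adjusted p under 0.05. The log2 fold changes then ran from -2.87 to -2.14 for Itgae, -2.91 to 0.89 for Itga7, -0.07 to 0.39 for Selplg (-0.0745 without Scd-1-/- replicate 1), -0.11 to 0.17 for Cd44 and -0.20 to 0.01 for Itga4 (0.0121 without WT replicate 3). The cause of these shifts was not tested.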
